A study of Homo sapiens with 9 samples.

Results

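NRIP1 and the coregulators that share its work were followed in 9 RNA-seq libraries of HCT116, an established human colorectal carcinoma cell line. The set holds 8 of the 11350 genes in the deposited count table: NRIP1, the coactivators NCOA1, NCOA2 and NCOA3, the corepressor NCOR1, the NRIP1 partners CTBP1 and CTBP2, and the nuclear receptor ESRRA. They were taken by gene symbol. NRIP1 was chosen by its measured counts, which are close to 0 in 1 of the lines, so its level there is a description and carries no test. The others were named as its relatives and partners, with earlier results of these data known. Their tests are therefore not independent of that choice. All 8 genes have a row in the table, and the main fit used no low-count filter. The smallest total of any gene in the deposited table was 41 counts. A missing row therefore does not show that a gene is silent.

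The HUWE1-P line is parental HCT116. In HUWE1-WT cells the codon of the catalytic cysteine in the HECT domain of the endogenous ubiquitin ligase HUWE1 was exchanged for a cysteine codon, and in HUWE1-CS cells for a serine codon. Both edited lines were made with a pair of guide RNAs and a repair template that carries a P2A-linked blasticidin resistance gene, and were selected with puromycin and blasticidin as single-cell clones, so HUWE1-WT shares the insertion and the selection with HUWE1-CS and HUWE1-P does not. The cells received no treatment. Each line has 3 libraries from distinct samples, whose relation to clones is not stated, so that a clone and the edit cannot be told apart. The p-values measure the spread between these libraries. That spread was estimated mostly from all genes together and little from each gene alone (prior degrees of freedom 89.5 in the edgeR fit).

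Nuclear receptors are transcription factors that read hormones, vitamin derivatives and lipids, and they act on genes through coregulators. Coactivators of the p160 family (NCOA1, NCOA2 and NCOA3) bind the active receptor through short LXXLL helices and bring in the acetyltransferases CREBBP and EP300, whereas NCOR1 holds a deacetylase complex with HDAC3 on inactive receptors. NRIP1, nuclear receptor interacting protein 1, uses the same LXXLL helices as a coactivator but recruits CtBP proteins and deacetylases, which makes it a repressor of active receptors. It is best known from fat and muscle, where it restrains genes of oxidative metabolism, and from the ovary, and it is also expressed in intestinal epithelium. ESRRA encodes the orphan receptor ERR alpha, an activator of mitochondrial genes that works with the PGC-1 coactivators and is among the receptors that NRIP1 binds.

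In the GRCh37 annotation NRIP1 (Entrez 8204) lies on the minus strand at chr21:16333556-16438257, with 4 exons in its reference transcript of 7751 bases and a single exon that holds the whole coding sequence of 3474 bases. ESRRA (Entrez 2101) lies on the plus strand at chr11:64072969-64084215, with 7 exons of which 6 are coding. These are the only members that stood apart in HUWE1-CS cells, and their annotated start regions are therefore shown, from RefSeq on GRCh38.p14, each with 250 bases before and 50 bases after a start. RefSeq lists 3 starts of NRIP1 within 1346 bases, at chr21:15065887-15066186, chr21:15064951-15065250 and chr21:15064541-15064840 on the minus strand, and 1 start of ESRRA at chr11:64305274-64305573 on the plus strand. Capitals mark CpG dinucleotides.
NRIP1 start 1: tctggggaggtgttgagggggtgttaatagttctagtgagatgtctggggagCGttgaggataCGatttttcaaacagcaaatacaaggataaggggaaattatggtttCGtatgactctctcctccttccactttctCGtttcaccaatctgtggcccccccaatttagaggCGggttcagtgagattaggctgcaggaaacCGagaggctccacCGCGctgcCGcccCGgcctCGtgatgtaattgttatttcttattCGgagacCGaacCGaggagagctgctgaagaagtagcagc
NRIP1 start 2: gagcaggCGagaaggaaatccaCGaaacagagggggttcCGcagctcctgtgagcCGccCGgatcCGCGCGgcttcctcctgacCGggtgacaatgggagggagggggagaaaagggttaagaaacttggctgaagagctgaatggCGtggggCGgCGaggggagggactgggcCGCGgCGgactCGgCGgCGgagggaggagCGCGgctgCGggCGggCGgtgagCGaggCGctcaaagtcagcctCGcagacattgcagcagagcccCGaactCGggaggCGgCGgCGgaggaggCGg
NRIP1 start 3: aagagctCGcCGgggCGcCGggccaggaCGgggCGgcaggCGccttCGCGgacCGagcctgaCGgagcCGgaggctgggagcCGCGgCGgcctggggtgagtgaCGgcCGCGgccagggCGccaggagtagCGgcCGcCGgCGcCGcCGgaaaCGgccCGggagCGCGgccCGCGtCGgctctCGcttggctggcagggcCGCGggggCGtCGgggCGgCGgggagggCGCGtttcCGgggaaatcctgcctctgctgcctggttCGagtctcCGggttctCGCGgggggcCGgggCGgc
ESRRA: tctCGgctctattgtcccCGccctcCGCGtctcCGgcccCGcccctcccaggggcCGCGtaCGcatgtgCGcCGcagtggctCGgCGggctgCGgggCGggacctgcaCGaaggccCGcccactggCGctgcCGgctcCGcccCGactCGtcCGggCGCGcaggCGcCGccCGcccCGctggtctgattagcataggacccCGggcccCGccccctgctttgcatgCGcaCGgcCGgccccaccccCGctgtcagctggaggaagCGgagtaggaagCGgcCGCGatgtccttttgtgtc
The NRIP1 windows hold 14, 32 and 48 CpG and the ESRRA window 39, beside a median of 14 over the 35116 windows of the RefSeq table. The third NRIP1 window is CpG-rich, with 98% of all windows holding fewer, and the first is ordinary, with 49.7% holding fewer. The nuclear receptor element AGGTCA, searched on both strands, is present in 0 of the 18 windows of the 7 members read and in 13.8% of all windows, and its extended ERR form TNAAGGTCA in 0.951% of all windows. NCOA2 was left out of this search, so the count does not cover every member. The files hold RNA counts alone, and which start is used in these cells was not measured.

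The smallest library had 1610984 counts in all and the largest 2060349. CPM are counts scaled to library size by TMM, and 3 counts, the floor used here, stand for 1.45 CPM in the largest and 1.86 CPM in the smallest effective library. HUWE1 itself had 543 ± 19.8 CPM in HUWE1-P, 469 ± 25.8 in HUWE1-WT and 336 ± 11.7 in HUWE1-CS cells (SD, n = 3). The log2 difference of HUWE1-CS was -0.69 against HUWE1-P and -0.48 against HUWE1-WT. Both were called (edgeR adjusted p = 1.059e-15 and 4.682e-09). Read counts of a codon exchange do not show the exchange, so this does not check the labels. Of 6 epithelial markers, 5 had a row (EPCAM, KRT8, KRT18, KRT19 and CDH1), and their summed level ran from 4093 to 4217 CPM in HUWE1-P, from 4117 to 4511 in HUWE1-WT and from 3643 to 4015 in HUWE1-CS libraries. KRT8, which made up most of the sum with KRT18 and KRT19, fell by 0.32 on the log2 scale against HUWE1-P and KRT18 by 0.30, while EPCAM rose by 0.28 and CDH1 by 0.53, each also called against HUWE1-WT (edgeR). VIL1 and the markers PTPRC, PECAM1 and COL3A1 of other cell types had none, and COL1A1, the only such marker with a row, had 17.996 to 25.6 CPM in the control libraries and 8.71 to 14.8 CPM in HUWE1-CS libraries. The part of these shifts in the results below was not tested.

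NRIP1 RNA was present at a middling level in both control lines and almost gone in HUWE1-CS cells. The HUWE1-P libraries held 109, 118 and 121 counts of NRIP1, and the HUWE1-WT libraries held 118, 98 and 128. The HUWE1-CS libraries held 2, 1 and 0. After normalization these were 67.7, 66.2 and 58.3 CPM in HUWE1-P, 68.4, 53.4 and 74.4 CPM in HUWE1-WT, and 1.19, 0.567 and 0 CPM in HUWE1-CS. The groups do not overlap: the lowest control library, HUWE1-WT replicate 2, stood far above every HUWE1-CS library, all of which were under the floor. Over the whole table, all HUWE1-CS libraries were below all controls in 13.4% of the genes.

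The summed NRIP1 counts of 348 in HUWE1-P and 3 in HUWE1-CS give a ratio of 110, with an exact 95% counting interval of 37.2 to 534. Against HUWE1-WT, with 344 counts, the ratio was 112 (38.1 to 547). Set against the floor of 3 counts in each HUWE1-CS library, the ratios were 36.8 and 37.6, and against a floor of 1 count the first of them was 110. What was left of NRIP1 in HUWE1-CS was thus 0.912% of the HUWE1-P level and 0.890% of the HUWE1-WT level, from 3 reads in all, and the counting interval is the only error these reads allow. In these bulk samples, fewer cells with the RNA and less RNA per cell cannot be told apart.

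Between the control lines, where the choice of NRIP1 played no part, its RNA did not differ beyond the spread of the libraries. HUWE1-P cells had 64.1 ± 5.04 CPM and HUWE1-WT cells 65.4 ± 10.8 CPM (SD, n = 3), a log2 difference of 0.03 with a 95% interval of -0.22 to 0.28 (SE 0.126, edgeR quasi-likelihood adjusted p = 0.992). The sign of so small a difference is not fixed, and it ran from -0.07 to 0.17 as single libraries were left out.

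**Figure D1:**
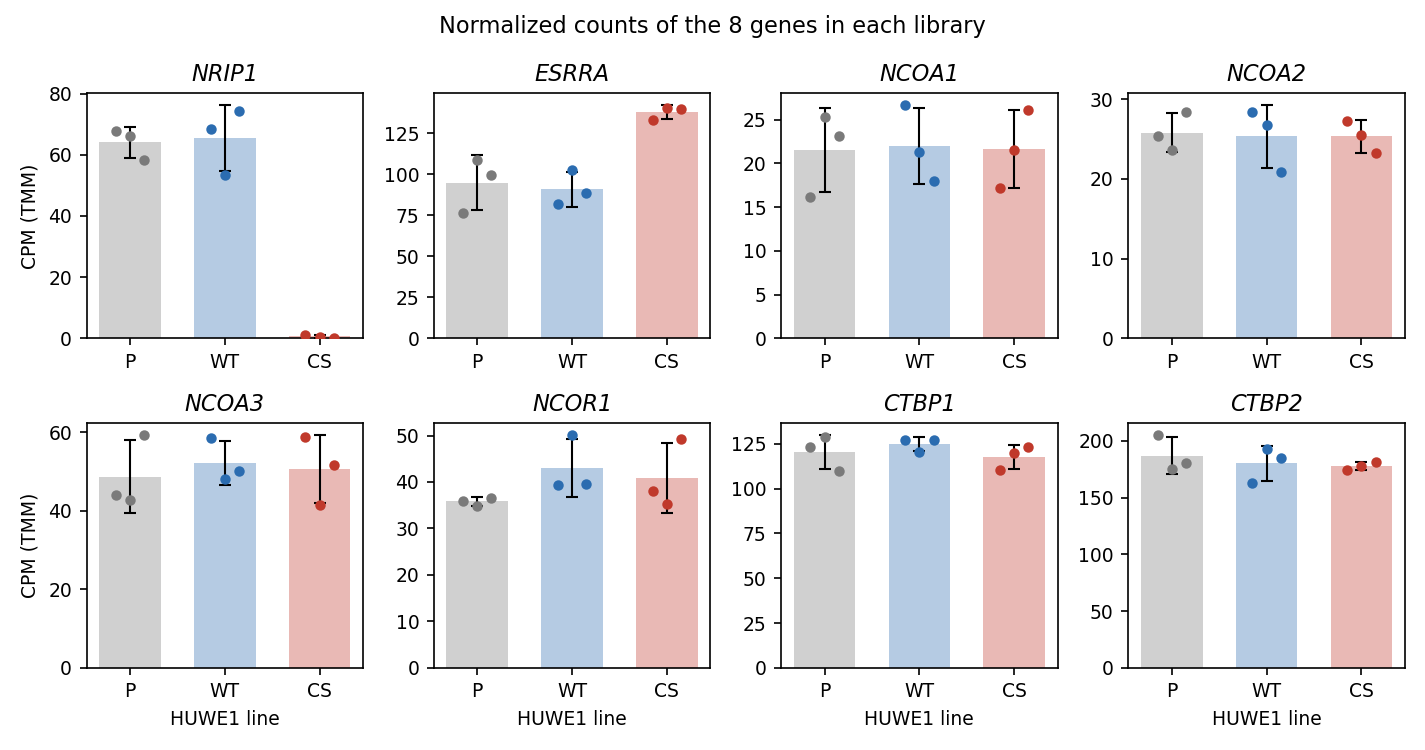
Normalized counts (CPM, y axis) of the 8 genes in each line (x axis, named without its prefix), with a point for each library, bars at the mean of 3 libraries and error bars of 1 SD. NRIP1 falls from between 53.4 and 74.4 CPM in the 6 control libraries to at most 1.19 CPM in HUWE1-CS, and ESRRA is above all controls in HUWE1-CS. In the other 6 genes the HUWE1-CS libraries overlap with the controls.

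Few genes with a clear signal in HUWE1-P cells were lost to this degree. NRIP1 was set beside the 9835 other genes with a mean of at least 20 counts in the HUWE1-P libraries. Of all these genes, NRIP1 and ZNF440 alone had at most 3 counts in every HUWE1-CS library. The gene with the most similar profile over the 9 libraries was also ZNF440, a zinc finger gene on chromosome 19 with 24, 20 and 33 counts in HUWE1-P, 22, 31 and 25 in HUWE1-WT and 2, 0 and 0 in HUWE1-CS. Likeness was taken as the root mean square difference of centred log2 CPM, which was 1.15 for ZNF440. Counts in HUWE1-WT played no part in which genes were compared here. Against HUWE1-WT, the lowest log2 difference of the whole table was -7.73, beyond that of NRIP1 at -6.65.

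The next most similar genes kept more of their RNA. SEC31A, a COPII coat subunit, was 1.45 away and went from 80.1 ± 3.29 CPM in HUWE1-P to 10.2 ± 0.472 CPM in HUWE1-CS cells. VCAN, the matrix proteoglycan versican, was 1.57 away and went from 119 ± 15.3 to 18.6 ± 3.16 CPM. CPA4, a secreted carboxypeptidase, was 1.59 away and went from 42.3 ± 6.91 to 5.80 ± 1.52 CPM. CYP24A1, the vitamin D hydroxylase, was 1.60 away and went from 159 ± 10.5 to 25.5 ± 1.52 CPM. All 5 lie on other chromosomes than NRIP1, and their profiles were chosen for the same low level in HUWE1-CS, so the likeness describes the ranking and nothing more.

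ESRRA, the receptor of the set, changed in the opposite direction. Its RNA was at 76.3, 109 and 99.3 CPM in HUWE1-P, at 81.7, 103 and 88.4 CPM in HUWE1-WT, and at 133, 141 and 140 CPM in HUWE1-CS libraries. All 3 HUWE1-CS libraries were above all 6 controls, as were those of 12.9% of the genes in the table. The increase was 0.53 on the log2 scale against HUWE1-P (SE 0.0991, 95% interval 0.33 to 0.73, edgeR quasi-likelihood adjusted p = 1.115e-05) and 0.60 against HUWE1-WT (SE 0.101, interval 0.40 to 0.80, adjusted p = 1.296e-06). The control lines differed by -0.07 (interval -0.28 to 0.14, adjusted p = 0.983). The 2 increases share the HUWE1-CS libraries and are not independent of each other.

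The call of ESRRA did not rest on a single library or setting among those run. Without HUWE1-P replicate 1, the library with the lowest ESRRA level, the increase over HUWE1-P was 0.41 (adjusted p = 0.0025), and with the trend over transcript length removed it was 0.47. ESRRA has 2 pseudogenes by name, and 284 of its exonic bases lie under TRMT112 on the opposite strand, whose own difference of 0.11 was not called (adjusted p = 0.332). Whether strand was used in the counting is not stated in the sources used here.

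The p160 coactivators were expressed in all lines and none was called in any comparison. NCOA1 ran from 16.1 to 26.7 CPM over the 9 libraries, and its difference between HUWE1-CS and HUWE1-P was -0.00 (interval -0.41 to 0.40). NCOA2 ran from 20.9 to 28.4 CPM, with a difference of -0.03 (interval -0.40 to 0.33). NCOA3 was the most abundant of the family and ran from 41.4 to 59.3 CPM, with a difference of 0.04 (interval -0.24 to 0.32). With 26 to 123 counts per library for these genes, differences inside those intervals remain possible. The intervals are not the limit of detection, since a call needed an adjusted p of at most 0.01. A stretch of 247 exonic bases of NCOA3 is shared with SULF2 on the other strand, which rose by 1.45 (SE 0.187, adjusted p = 5.856e-10).

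NCOR1, the scaffold of the HDAC3 corepressor complex, had 36.0, 34.8 and 36.6 CPM in HUWE1-P, 39.4, 50.2 and 39.5 CPM in HUWE1-WT and 38.0, 35.2 and 49.4 CPM in HUWE1-CS libraries. The HUWE1-P libraries lay close together, and every HUWE1-WT library was above every HUWE1-P library. The share of all genes with such a separation was not counted. The HUWE1-CS libraries overlapped with both control lines. NCOR1 was not called: the difference was 0.19 between HUWE1-CS and HUWE1-P (interval -0.12 to 0.50) and 0.27 between HUWE1-WT and HUWE1-P (interval -0.04 to 0.57, unadjusted p = 0.0828, edgeR adjusted p = 0.911). Without HUWE1-WT replicate 2 the latter was 0.14. The former was 0.037 without HUWE1-CS replicate 3 and 0.29 without HUWE1-CS replicate 2.

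The NRIP1 partners CTBP1 and CTBP2, corepressors that bind its repression domains, had the smallest errors of the members, with between 186 and 374 counts per library. CTBP1 had 120 ± 9.58 CPM in HUWE1-P, 125 ± 3.82 in HUWE1-WT and 118 ± 6.58 in HUWE1-CS cells, and CTBP2 had 187 ± 16.2, 180 ± 15.6 and 178 ± 3.63 CPM. The difference between HUWE1-CS and HUWE1-P was -0.03 (interval -0.21 to 0.16) for CTBP1 and -0.07 (interval -0.22 to 0.09) for CTBP2. Against HUWE1-WT it was -0.08 (interval -0.27 to 0.10) and -0.02 (interval -0.18 to 0.14). All 4 intervals include 0, and none reaches further than -0.27. CTBP2 shares 3416 exonic bases with ZRANB1 on the other strand and has 8 pseudogenes by name, so its level is less certain than its counts imply.

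**Figure D2:**
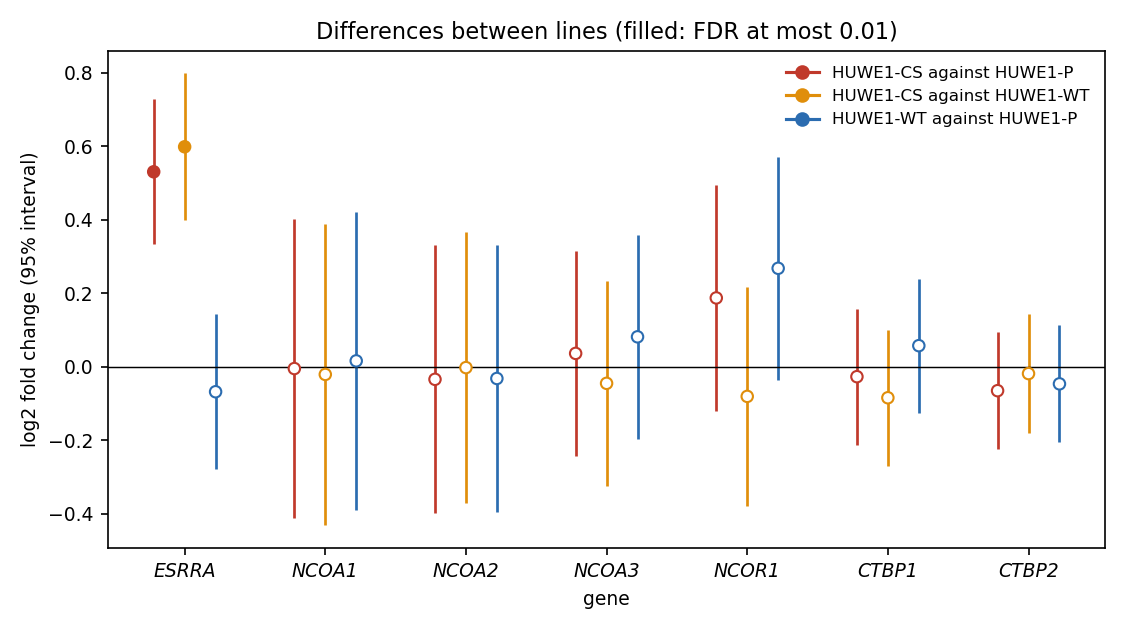
Log2 differences (y axis) of the 7 members other than NRIP1 in the 3 comparisons between lines, with 95% intervals of the edgeR fit and filled points where the adjusted p is at most 0.01. ESRRA is called in both comparisons with HUWE1-CS, and the intervals of the other 6 genes include 0 in every comparison.

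Of the 7 members other than NRIP1, 1 was called in HUWE1-CS against the parental line, as were 17% of all genes (8.46% higher and 8.58% lower), and 1 against HUWE1-WT, as were 15.5% of all genes (7.42% higher and 8.08% lower). Between HUWE1-WT and HUWE1-P, where 0.0617% of all genes were called, 0 of the 8 members were called by edgeR, by DESeq2 or by limma-voom, and 0 had an unadjusted p under 0.05. The share of members called is near that of all genes.

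Levels of different genes were compared per kb of exon. In HUWE1-P cells ESRRA led with 30.6 ± 5.39 CPM per kb, followed by CTBP2 with 16.8 ± 1.46, CTBP1 with 11.4 ± 0.909, NRIP1 with 7.54 ± 0.593 and NCOA3 with 5.78 ± 1.09. NCOA2, NCOA1 and NCOR1 had the lowest levels, at 2.58 ± 0.245, 2.39 ± 0.531 and 2.29 ± 0.0592 CPM per kb. The range of NCOA1 overlapped with those of both others, whereas every library of NCOA2, from 2.36 to 2.84, was above every library of NCOR1, from 2.23 to 2.34. The ranges of NRIP1 and NCOA3 overlapped, from 6.86 to 7.96 and from 5.07 to 7.04 CPM per kb. NRIP1 stood at the percentile 49.6 of the 11065 genes with a length. In HUWE1-CS cells it was the last of the 8, at 0.0688 CPM per kb, below NCOA1 at 2.41. The order depends on the length used: per kb of the longest transcript CTBP1, at 28.3, stood above CTBP2, at 22.1, and NCOR1, at 3.24, above NCOA2, at 3.06.

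NRIP1 lies in a gene-poor stretch of chromosome 21, and the genes beside it were read next. Only 1 gene of the table starts before NRIP1 on the chromosome, so that 6 neighbours were taken. The nearest, HSPA13, which encodes a microsomal chaperone of the HSP70 family, starts 0.590 Mb before NRIP1 at chr21:15743436-15755805. It had 69.5, 73.0 and 58.3 CPM in HUWE1-P, 75.3, 55.1 and 73.3 CPM in HUWE1-WT and 45.7, 35.2 and 48.8 CPM in HUWE1-CS libraries. All HUWE1-CS libraries were below all controls, as were those of 13.4% of all genes. HSPA13 fell by 0.62 on the log2 scale against HUWE1-P (SE 0.137, edgeR adjusted p = 0.000193) and by 0.65 against HUWE1-WT (SE 0.137, adjusted p = 0.00012). Without HUWE1-CS replicate 2, the lowest library, the first difference was -0.48 with an adjusted p of 0.0118, above the threshold of 0.01.

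On the other side, USP25, a deubiquitinase gene that starts 0.769 Mb after NRIP1, had a difference of -0.18 between HUWE1-CS and HUWE1-P (interval -0.51 to 0.14). CXADR, which encodes a tight junction receptor, starts 2.55 Mb after NRIP1 and had -0.27. BTG3, C21orf91 and MRPL39, which start 2.63, 2.83 and 10.6 Mb after NRIP1, had 0.02, -0.00 and 0.21. None of these 5 was called, although all HUWE1-CS libraries of MRPL39, which encodes a mitochondrial ribosomal protein, lay above all controls (edgeR adjusted p = 0.288). The same was true of 12.9% of all genes. Of the 6 neighbours 1 was called, beside 17% of all genes. Every neighbour had at least 15.3 CPM in every HUWE1-CS library, the lowest being that of CXADR.

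**Figure D3:**
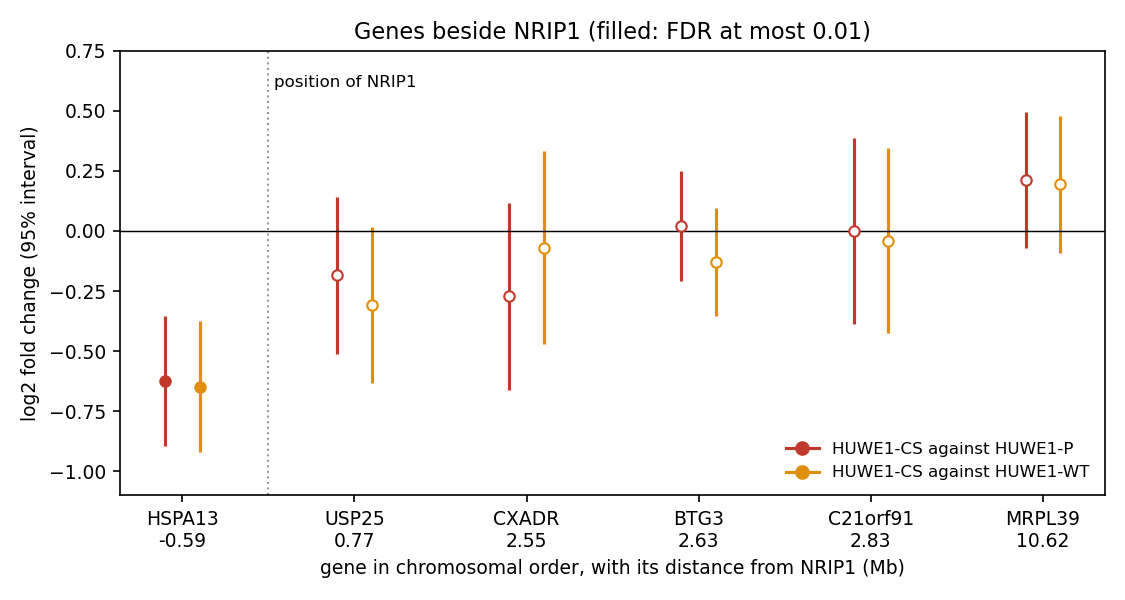
Log2 fold changes (y axis, with 95% intervals) of the 6 genes of the table beside NRIP1, in chromosomal order with the distance of their starts in Mb, for HUWE1-CS against HUWE1-P and against HUWE1-WT, filled where the adjusted p is at most 0.01. HSPA13 is called in both comparisons, and the intervals of the other 5 genes include 0.

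The wider coregulator network was read through 5 lists of 151 genes typed from general knowledge, of which 115 had a row. The lists leave out the members and were made with earlier results of these data known. Between HUWE1-CS and HUWE1-P, 10 of them rose and 10 fell, which is 17.4% called beside 17% of all genes, and between HUWE1-CS and HUWE1-WT 8 rose and 11 fell, which is 16.5% beside 15.5%. DESeq2 called 13 and 10 of the 115, or 11.3% and 8.7%, beside 9.59% and 8.79% of all genes. Without HUWE1-P replicate 3 edgeR called 13 in the first comparison, or 11.3% beside 12.9% of all genes, and without HUWE1-CS replicate 1 it called 12 in the second, or 10.4% beside 12.4%. Between HUWE1-WT and HUWE1-P, 0 of the 115 were called by edgeR, DESeq2 or limma-voom, and 5 had an unadjusted p under 0.05. In HUWE1-CS against HUWE1-P the median difference over the lists was -0.02 and over all genes -0.01.

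Of 37 coactivators with a row, 3 rose and 2 fell in HUWE1-CS against HUWE1-P, a share of 13.5% beside 17% of all genes, with a median of -0.03. DESeq2 called 1 of the 37, or 2.7% beside 9.59%. PPARGC1B, which encodes the ERR coactivator PGC-1 beta, had the lowest value of the list. It was at 41.0, 35.9 and 31.3 CPM in HUWE1-P, at 26.1, 27.3 and 28.5 CPM in HUWE1-WT and at 12.5, 11.9 and 22.1 CPM in HUWE1-CS libraries. All HUWE1-CS libraries were below all controls, as were those of 13.4% of all genes. Every HUWE1-WT library was also below every HUWE1-P library. The control lines differed by -0.39 (interval -0.73 to -0.05), which was not called (edgeR adjusted p = 0.832). PPARGC1B fell by 1.20 against HUWE1-P (SE 0.197, edgeR adjusted p = 5.723e-07) and by 0.82 against HUWE1-WT (SE 0.210, adjusted p = 0.00178). The latter call was lost without HUWE1-CS replicate 1 or 2 and with DESeq2, with adjusted p-values from 0.021 to 0.033. PPARGC1A, which encodes PGC-1 alpha, had no row.

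CREBBP, the acetyltransferase that p160 coactivators recruit, fell by 0.40 against HUWE1-P (SE 0.106, edgeR adjusted p = 0.00234), from 101 ± 5.63 to 76.4 ± 8.35 CPM, and had a difference of -0.26 against HUWE1-WT that was not called (adjusted p = 0.0708). With the length trend removed the first value was -0.25 and was no longer called. The call was lost in 6 of 21 other settings, DESeq2 and the omission of HUWE1-P replicate 3 or HUWE1-CS replicate 1 or 2 among them. NCOA5, a coregulator without the p160 architecture, rose by 0.46 (SE 0.120, adjusted p = 0.00193), from 54.5 ± 3.82 to 75.1 ± 4.06 CPM. PNRC1, a small proline-rich receptor cofactor, had the highest value, 0.89 (SE 0.241, adjusted p = 0.00263), but its HUWE1-CS library 1, at 13.6 CPM, lay among the controls at 10.6 to 14.5 CPM. Against HUWE1-WT its difference was 0.70 and was not called (adjusted p = 0.0208), while NCOA5 was called at 0.45. The calls of NCOA5 and PNRC1 against HUWE1-P were lost with DESeq2 and without some single libraries of HUWE1-P or HUWE1-CS, and that of NCOA5 against HUWE1-WT was lost in 4 of 21 settings.

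Of 31 corepressors, 4 rose and 2 fell, a share of 19.4% beside 17% of all genes, with a median of 0.03. HDAC1, a deacetylase of the SIN3, NuRD and CoREST complexes, rose by 0.49 (SE 0.0664, edgeR adjusted p = 3.251e-09), from 294, 296 and 297 CPM in HUWE1-P to 424, 387 and 435 CPM in HUWE1-CS libraries. SAP18, a SIN3-associated protein, rose by 0.42 (SE 0.0762, adjusted p = 4.738e-06). SPEN, the large corepressor that binds RNA, fell by 0.63 (SE 0.0923, adjusted p = 2.599e-08) and RERE, an atrophin family corepressor, by 0.71 (SE 0.154, adjusted p = 0.000177). HDAC1, SAP18, SPEN and RERE were also called against HUWE1-WT, at 0.45, 0.34, -0.42 and -0.59, but the call of RERE was lost there with DESeq2 and without HUWE1-WT replicate 1 or HUWE1-CS replicate 1 or 2, with adjusted p-values from 0.0159 to 0.0551.

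HDAC3, the deacetylase of the NCOR1 complex, had a difference of 0.10 that was not called (edgeR adjusted p = 0.538). Among 15 partners of CtBP proteins, 0 were called in HUWE1-CS relative to HUWE1-P by edgeR, DESeq2 or limma-voom, which called 17%, 9.59% and 16.5% of all genes, with 2 at an unadjusted p under 0.05 and a median of 0.07. KDM1A, the histone demethylase of the CtBP complex, had 289 ± 12.6 CPM in HUWE1-P and 287 ± 4.47 CPM in HUWE1-CS cells, with a difference of -0.01 (SE 0.0685, adjusted p = 0.953). Against HUWE1-WT 1 of the 15 was called, or 6.67% beside 15.5% of all genes. It was EHMT2, a histone methyltransferase singled out after its values were seen, at 0.40.

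The receptors that these coregulators serve were called more often, at 8 of 23, or 34.8% beside 17% of all genes, with 2 higher and 6 lower and a median of -0.29. This difference in share was not tested, and the list does not hold the member ESRRA, which rose. Of the 47 receptor genes listed 23 had a row, and the estrogen and progesterone receptor genes ESR1, ESR2 and PGR were among those with none. NR2F1 and NR2F2 encode the orphan receptors COUP-TFI and COUP-TFII, which mostly repress. NR2F1 was at 82.6, 75.8 and 74.7 CPM in HUWE1-P, 84.6, 69.3 and 82.6 CPM in HUWE1-WT and 29.1, 27.8 and 26.7 CPM in HUWE1-CS libraries, and fell by 1.47 (SE 0.140, edgeR adjusted p = 1.616e-15). NR2F2 was at 169, 173 and 169 CPM in HUWE1-P, 156, 165 and 168 CPM in HUWE1-WT and 81.3, 78.3 and 78.4 CPM in HUWE1-CS libraries, and fell by 1.10 (SE 0.0925, adjusted p = 3.521e-18). In both genes every HUWE1-CS library was below all 6 controls, as were those of 13.4% of all genes. The control lines overlapped in NR2F1, whereas in NR2F2 every HUWE1-WT library was below every HUWE1-P library. Against HUWE1-WT the differences of NR2F1 and NR2F2 were -1.50 and -1.04.

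NR2F6, the third member of that family, rose by 0.40 (SE 0.0828, edgeR adjusted p = 9.021e-05), from 138 ± 1.94 to 181 ± 13.1 CPM, and its 0.23 against HUWE1-WT was not called (adjusted p = 0.0262). NR4A2, an immediate early orphan receptor, had few counts and rose from 8.69, 9.54 and 6.26 CPM in HUWE1-P to 20.8, 33.5 and 22.1 CPM in HUWE1-CS libraries, by 1.65 (SE 0.258, adjusted p = 1.715e-07). The other 4 receptors that fell, singled out after their values were seen, were NR1D1 at -0.89, the retinoic acid receptors RARA at -0.86 and RARG at -0.43, and PPARG, the fatty acid sensing receptor of fat cells, at -0.75. RARA, RARG and PPARG were also called against HUWE1-WT, at -0.66, -0.46 and -0.97, and NR1D1 was not, at -0.62 (adjusted p = 0.0186). These calls were less firm than those of NR2F1 and NR2F2: over 21 other settings the call against HUWE1-P was lost in 8 for PPARG and 5 for RARG, and that against HUWE1-WT in 6 for RARA, 4 for RARG and 2 for PPARG, with no change of sign. DESeq2 was among the settings in each case.

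Of the metabolic genes that ERR alpha activates or NRIP1 represses in other tissues, 9 of 15 had a row, and PDK4, CPT1B, UCP1, CIDEA, FABP3 and FABP4, the best known in muscle and fat, had none. ATP5F1B, the beta subunit of mitochondrial ATP synthase, rose by 0.39 (SE 0.0542, edgeR adjusted p = 6.753e-09), from 1220.0 ± 43.8 to 1598 ± 9.54 CPM, and was the only gene of this list that was called, or 11.1% beside 17% of all genes. The median was 0.18, with values from -0.02 to 0.39.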

How the data were processed

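RNA-seq of 3 HCT116 lines with 3 libraries each was used, grouped by the sample labels. The authors purified poly(A) RNA, made libraries with a NEBNext Ultra II kit, sequenced single ends, trimmed adapters with Skewer, mapped reads to hg19 with STAR 2.5.4 (per the labels, with bcl2fastq 2.20 and edgeR 3.26.8), and deposited raw counts per gene for every library. Which tool counted them, with which annotation and with or without strand, is not given in the sources used here. The deposited tables of the authors' own comparisons hold log2 fold changes and p-values and were not used.

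Counts of all 11350 genes were normalized by TMM and tested with edgeR 4.0.16 (R 4.3.3; glmQLFit with legacy = TRUE, glmQLFTest, line as the only term, all 9 libraries). A gene was called at a Benjamini-Hochberg adjusted p of at most 0.01 over all genes, and every adjusted p comes from this fit unless another tool is named. Intervals are 95%. Ratios of NRIP1 counts have exact conditional binomial intervals. These ratio intervals and the floors cover counting error only, and the intervals of log2 differences come from the edgeR fit. The test was tried on simulated counts. Between replicates, chi-square per degree of freedom was 1.16 to 1.65, so none agreed within sampling noise. Positions and exon lengths came from GENCODE on GRCh37, where 11065 genes were placed. Symbols were absent for 147 genes, which were kept.

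The members and lists were chosen with earlier results of these data known. Named are all members, in each list the called genes with the 2 highest and 2 lowest differences in HUWE1-CS against HUWE1-P, HDAC3, KDM1A and PPARGC1B by role (a result for 1 other gene is not reported here), up to 5 neighbours of NRIP1 on either side, and the 5 genes nearest to NRIP1 in centred log2 CPM (prior count 2, at least 20 mean counts in HUWE1-P). Alternatives were DESeq2 1.42.0, limma 3.58.1 (voom), the newer edgeR estimator, RLE factors, total counts, a minimum of 10 counts, a robust fit, fits of 2 lines at a time, a block for the replicate number, removal of the transcript length trend, omission of each library, an FDR of 0.05, a floor of 1 count and the longest transcript as length.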

Additional observations from a re-analysis of the deposited data

How the results depend on the processing

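The calls of the members (ESRRA in both comparisons with HUWE1-CS, none between the controls) were the same under every alternative run. Of 1385 recomputed gene differences, 82 changed sign, 0 of them called, none beyond 0.141569 in size. The 20 called list genes against HUWE1-P became 13 with DESeq2, 33 at an FDR of 0.05 and 13 to 23 as libraries were left out, and the 19 against HUWE1-WT became 10 with DESeq2 and 12 to 19. Called neighbours were 0 to 1. Over all genes the 3 comparisons had 1934, 1759 and 7 calls, 1088, 998 and 0 with DESeq2, 2999, 2774 and 13 at an FDR of 0.05, and between the controls 4 with at least 10 counts, 1 with a robust fit and 1 to 19 as libraries were left out. The cause was not tested. The minimum of 10 counts removed NRIP1 and gave it no value. Its ratio to HUWE1-P was 36.8 with a floor of 3 counts and 110 with 1.

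Whether equal replicate numbers pair the libraries was not settled. Correlations of their deviations were small, from -0.032 to 0.066, with 0 of 9 over 0.1, but 7 of 9 libraries correlated best with their own number. With the replicate block, 23 and 21 list genes, 1 and 1 members and 0 members between the controls were called, and 2021, 1835 and 7 of all genes.

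Differences that changed sign were all near 0. In HUWE1-CS against HUWE1-P, NCOA1 was 0.0077 with DESeq2, 0.0021 with RLE factors and 0.00098 with 2 lines fitted, and C21orf91 was 0.0024, 0.0056 and 0.0041, 0.011 with limma-voom and 0.00028 with at least 10 counts. BTG3 was -0.0031 with total counts. In HUWE1-CS against HUWE1-WT, NCOA2 was 0.0041 with DESeq2, 0.0064 with limma-voom and 0.0033 with RLE factors. With the length trend removed (with the block in parentheses), the values against HUWE1-P were 0.088 (0.094) for NCOA1, 0.078 (0.072) for NCOA2, 0.048 (0.048) for CTBP2, -0.115 (-0.112) for BTG3, 0.040 (0.037) for C21orf91 and 0.045 (0.045) for KDM1A. Against HUWE1-WT they were 0.041 (0.038) for NCOA1, 0.066 (0.068) for NCOA2, 0.020 (0.016) for NCOA3, 0.0017 (0.00094) for NCOR1 and 0.049 (0.050) for CTBP2, and between the controls 0.012 (0.0037) for NCOA2.

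Leaving out single libraries gave, for HUWE1-CS against HUWE1-P, -0.16 to 0.13 in NCOA1, -0.097 to 0.050 in NCOA2, -0.083 to 0.22 in NCOA3, -0.095 to 0.024 in CTBP1, -0.11 to 0.0028 in CTBP2, -0.020 to 0.080 in BTG3, -0.13 to 0.14 in C21orf91 and -0.035 to 0.025 in KDM1A. Against HUWE1-WT it gave -0.17 to 0.14 in NCOA1, -0.12 to 0.083 in NCOA2, -0.16 to 0.090 in NCOA3, -0.23 to 0.055 in NCOR1 and -0.086 to 0.042 in CTBP2. Between the controls it gave -0.070 to 0.17 in NRIP1, -0.14 to 0.14 in NCOA1, -0.12 to 0.086 in NCOA2, -0.0092 to 0.27 in NCOA3, -0.011 to 0.11 in CTBP1, -0.098 to 0.021 in CTBP2 and -0.19 to 0.035 in ESRRA. At this depth, signs of differences of this size are not resolved.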
